A study of Homo sapiens with 6 samples.

Results

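Most sites called in the PAR-CLIP AEG1 library were short, but 1411 of 60085 were 300 nt wide or wider, and these wide sites are described here. They were chosen by their width alone, the end minus the start of a site on its mRNA. They are 2.35% of the library's sites and hold 12.7% of its covered nt (729520 of 5733829 nt), on 864 mRNAs of as many genes out of 8002 genes with a PAR-CLIP AEG1 site. Across the 6 libraries of the series, 72385 sites were called in all. All 1411 wide sites entered every count, and no filter on low values was used.

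AEG-1, the product of MTDH, sits in the membrane of the endoplasmic reticulum (ER) and binds RNA. CLIP bonds a protein to the RNA it touches with UV light, precipitates the protein and sequences the RNA fragments that stay attached. A called site is a stretch of mRNA where such fragments pile up, so a wide site is a long stretch called as a single site and not a point of contact. How fragments were joined into a site is not given in the sources used. Secreted and membrane proteins are translated on ribosomes docked at the ER, whereas cytosolic and nuclear proteins are mostly made on free ribosomes.

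The cells were AEG-1-14, a line derived from HepG3 (a hepatoblastoma line in the labels) that stably expresses AEG-1 tagged with HA at the C-terminal end. All groups share this line, the tagged protein and the anti-HA precipitation. HITS-CLIP AEG1 (2 libraries) was irradiated at 254 nm and PAR-CLIP AEG1 (1 library) at 365 nm, while the HITS-CLIP negative controls (2 libraries) and the PAR-CLIP negative control (1 library) received no UV. Nothing in the labels ties the HITS-CLIP replicates to separate cultures, and their spread may be a technical one. Depth is unknown, since the files give sites and no numbers of reads. No library of total RNA was part of the series as used here, so the amount of each mRNA in the cell was not measured and its part in the width or cover of a site was not tested.

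The line was checked against a list of 42 secreted liver proteins, of which 35 had a PAR-CLIP AEG1 site and 21 a wide site. ALB (serum albumin), TF (transferrin), APOB (the scaffold of lipoprotein particles) and AHSG (fetuin-A) were among the 21. A wide site is what the rule selects, so these numbers describe the line and test nothing. Of 22 markers of other cell types (blood, vessel lining, connective tissue), 4 had a PAR-CLIP AEG1 site and 1 of these, LYZ (lysozyme), had wide sites. LYZ held 2, and HITS-CLIP AEG1 covered 67.9% and 77.5% of their nt in replicates 1 and 2.

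The wide sites had a median width of 413 nt (quartiles 341 and 559), against 73 nt for all PAR-CLIP AEG1 sites. Of them, 458 reached 500 nt, 82 (in 74 genes) reached 1000 nt and 15 reached 2000 nt. Just outside and just inside the rule's threshold were 16 sites of 299 nt and 4 of 300 nt. The 323 sites of 275 to 299 nt and the 229 sites of 300 to 324 nt were close in HITS-CLIP AEG1 cover. It was 129 and 108 nt per 1000 nt in the former (replicates 1 and 2) and 136 and 128 nt in the latter.

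Among the widest sites were those on mRNAs of a complement protein, an ion pump, a transport receptor and chaperones. C3, the central complement component, held a site of 3409 nt (nt 3 to 3411), and HSP90AA1, a cytosolic chaperone, a site of 2897 nt (nt 137 to 3033). ATP2A2, the calcium pump of the ER, held a site of 2606 nt, TFRC, the transferrin receptor, 2498 nt, and A2M, a plasma protease inhibitor, 2482 nt. STT3A, the catalytic subunit of the ER enzyme that attaches sugars to new proteins, held a site of 2467 nt and HSP90AB1, the other cytosolic HSP90, of 2342 nt. FN1, or fibronectin, held 2328 nt. The widest sites named here thus lie on mRNAs of proteins made at the ER and of cytosolic ones.

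Most genes held a lone wide site (566 of 864), while 175 held 2, 67 held 3 and 56 held 4 or more. FAT1, a giant cadherin, held the most with 16, followed by APOB with 13, SPTBN1, a spectrin of the membrane skeleton, with 11, and IGF2R, a receptor that carries enzymes to lysosomes, with 10. FASN, the cytosolic fatty acid synthase, held 8, FN1 and CLTC, the clathrin heavy chain, 7 each, and THBS1, or thrombospondin, PRPF8, a core splicing factor, and NOMO3, an ER membrane protein, 6 each. NOMO3 and its near-identical copy NOMO1 (5 wide sites) are uncertain, because it is not stated how fragments that match both were counted. The same holds for the HSP90, actin and ribosomal protein genes, which have close copies. Neighbouring wide sites of an mRNA were often separated by little, with a median gap of 151 nt over 547 gaps, of which 131 were 10 nt or less.

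Wide sites took up a median of 27.7% of the transcript span (quartiles 13.8% and 49.7%). The span was taken from nt 1 to the last nt under a site of any library, because the mRNA lengths themselves were not analysed here, and it falls short of the full length where no site lies near the end. Wide sites covered 50% or more of the span in 215 transcripts, 75% or more in 95 and 90% or more in 25. The median span was 2503 nt, against 2010 nt for the 7145 transcripts whose PAR-CLIP AEG1 sites were all narrower. PAR-CLIP sites of any width covered a median of 76.0% of the span in the former and 19.2% in the latter, which the choice by width partly fixes.

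**Figure D1:**
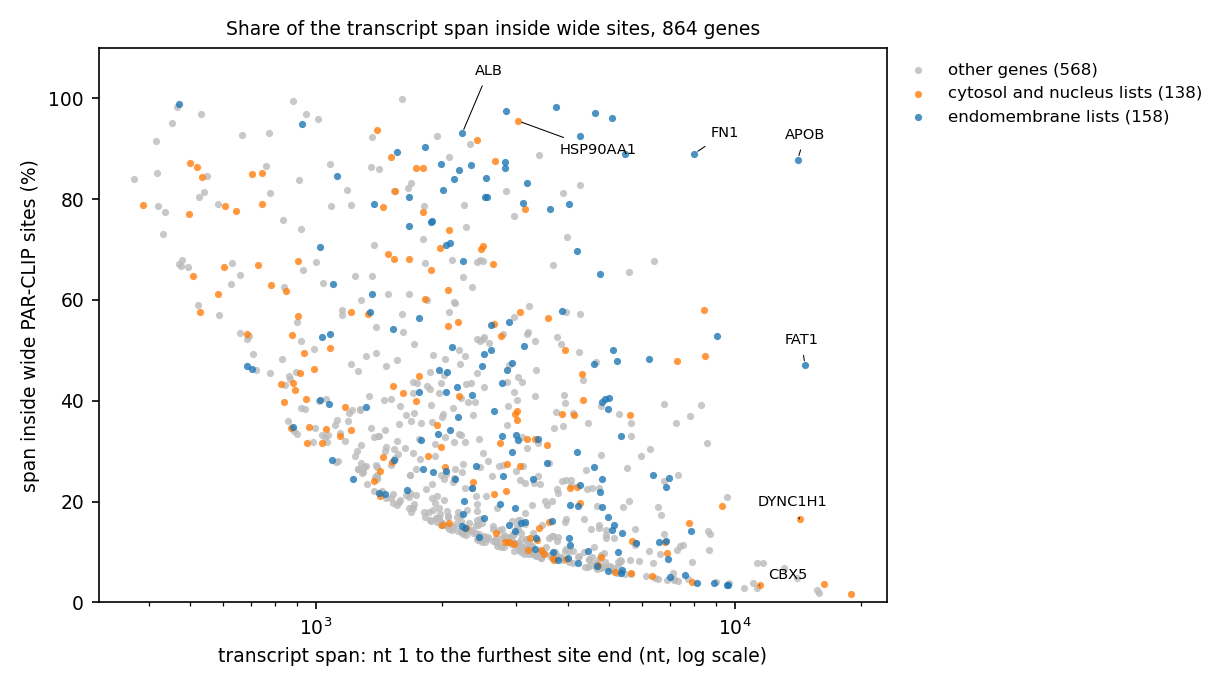
Each point is 1 of 864 genes with a wide PAR-CLIP site; the x axis is the transcript span in nt (log scale) and the y axis the percent of that span inside wide sites, coloured by gene list. The lower edge is the curve of a lone site of 300 nt, the median is 27.7%, and FN1 and APOB stay near 90% at spans of 8003 and 14117 nt.

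Among spans of at least 1000 nt, the most fully occupied mRNA was that of DKK1, a secreted Wnt antagonist, where 2 wide sites covered 99.9% of 1608 nt. The share was 97.4% on HSP90B1, the HSP90 of the ER, 97.2% on A2M and 96.0% on C3. IFI30, a lysosomal thiol reductase, stood at 96.0%, HSP90AA1 at 95.5%, GAPDH, a glycolytic enzyme, at 93.6%, ALB at 93.1% and KPNA2, a nuclear import factor, at 92.5%. Long mRNAs reached high shares through rows of wide sites. On APOB, 13 sites of 425 to 1839 nt took up 87.8% of 14117 nt, and on FN1, 7 sites took up 89.0% of 8003 nt. On FAT1 the 16 sites, 308 to 854 nt each, took up 47.1% of 14698 nt, and on DYNC1H1, the dynein heavy chain, 6 sites took up 16.6% of 14264 nt.

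Wide sites lay more towards the start and middle of the span than the narrower sites of the same transcripts. Their midpoints had a median position of 0.437 of the span, against 0.550 for 10204 narrower sites. The tertile of the span nearest the end held 20.4% of wide and 38.6% of narrower sites. The midpoint of a wide site cannot lie close to either end of the span, so width partly fixes these positions. Only 110 wide sites began within the first 100 nt. Within a transcript, wide sites also had the higher authors' scores, by a median of 2.88 on the log2 scale over 832 transcripts with both kinds, and in all 832. Width and score come from the same library, so these values describe the sites and test nothing.

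The HITS-CLIP libraries played no part in the choice of the sites. In them, 61.8% of wide sites (872 of 1411) were touched by at least 1 nt of a HITS-CLIP AEG1 site in replicate 1 and 58.3% (822) in replicate 2, a mean of 60.03% ± 2.51 (SD, n = 2). Both replicates touched 734 wide sites (52.0%), against 3.74% of all 60085 PAR-CLIP AEG1 sites and 7.41% of the narrower sites of the same transcripts. Neither replicate touched 451 wide sites (32.0%). A wide site offers more nt to be touched, so the shares are not comparable across widths and cover per nt was used for that comparison.

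Per nt, wide sites were also the more densely covered. HITS-CLIP AEG1 sites covered 285 and 265 nt per 1000 nt of wide sites in replicates 1 and 2, a mean of 275 ± 14.7 (SD, n = 2). On the narrower sites of the same transcripts the values were 73.6 and 63.7 nt, a mean of 68.7 ± 7.03 (SD, n = 2), so the replicates of the groups of sites did not overlap. Outside all PAR-CLIP AEG1 sites of these transcripts the cover was 5.60 and 4.28 nt per 1000 nt. The ratio of wide to narrower sites was 3.88 and 4.16, a mean of 4.02 ± 0.198 (SD, n = 2). For it, nt were pooled over transcripts, which differ in how much they give to each side. The 32 transcripts without a narrower site entered the wide side only. No test was run on this ratio, since sites are not replicates and 2 libraries give too few values.

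HITS-CLIP cover rose with the width of the PAR-CLIP site over the whole range. On the 864 transcripts it went from 18.3 and 17.9 nt per 1000 nt in sites under 50 nt to 126 and 114 nt in those of 200 to 299 nt. It then rose from 147 and 133 nt in sites of 300 to 399 nt to 220 and 197 nt at 400 to 599 nt and 363 and 348 nt at 600 to 999 nt. In the 82 sites of 1000 nt or more it was 543 and 508 nt, and 80 of these were touched in both replicates. The increase passed through the threshold of 300 nt without a step. Different transcripts fill the classes, and control cover was highest in the widest class as well, at 11.7 and 12.2 nt in the HITS-CLIP controls and 38.4 nt in the PAR-CLIP control. The part of either in the increase was not tested.

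**Figure D2:**
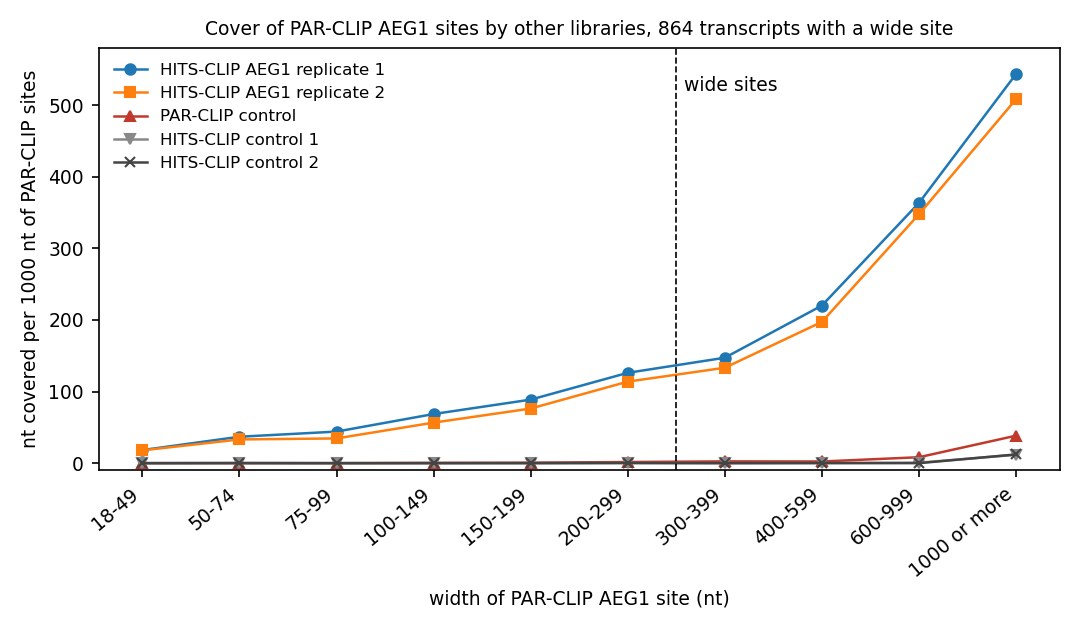
The x axis gives width classes of PAR-CLIP AEG1 sites on the 864 transcripts with a wide site, and the y axis the nt covered by sites of 5 other libraries per 1000 nt of PAR-CLIP sites (1 point per library and class, no error bars). Both HITS-CLIP AEG1 replicates rise from about 18 to above 500 nt, and the controls stay under 39 nt in each class.

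Within transcripts the same order held for most but not all mRNAs. Of transcripts with both kinds of site and any HITS-CLIP cover of their PAR-CLIP sites, 449 of 612 (73.4%) had the higher cover per nt in wide sites in replicate 1 and 420 of 573 (73.3%) in replicate 2. For orientation, in transcripts without a wide site the widest site was more covered than the rest in 35.8% of 765 in replicate 1 and 34.4% of 680 in replicate 2. Those widest sites are narrower and offer fewer nt than wide sites do. The measures differ too, since all wide sites of a transcript were pooled above and a lone widest site was taken here.

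Many wide sites held several separate HITS-CLIP sites. At least 2 lay wholly inside 567 wide sites (40.2%) in replicate 1 and inside 534 (37.8%) in replicate 2. In wide sites of 1000 nt or more the median was 8 in each replicate, and the highest numbers were 24 and 26. TFRC held 24 and 19 in its site and STT3A 24 and 20. By gene, APOB held 91 and 90 HITS-CLIP sites inside its wide sites, FN1 48 and 52, A2M 38 and 34, and IGF2R 34 and 31. The near-identical NOMO3 copy held 27 and 22, ATP2A2 25 and 24, LAMC1, a laminin chain, 23 and 23, HSP90B1 22 and 23, and SLC12A2, a chloride cotransporter, 21 and 22.

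**Figure D3:**
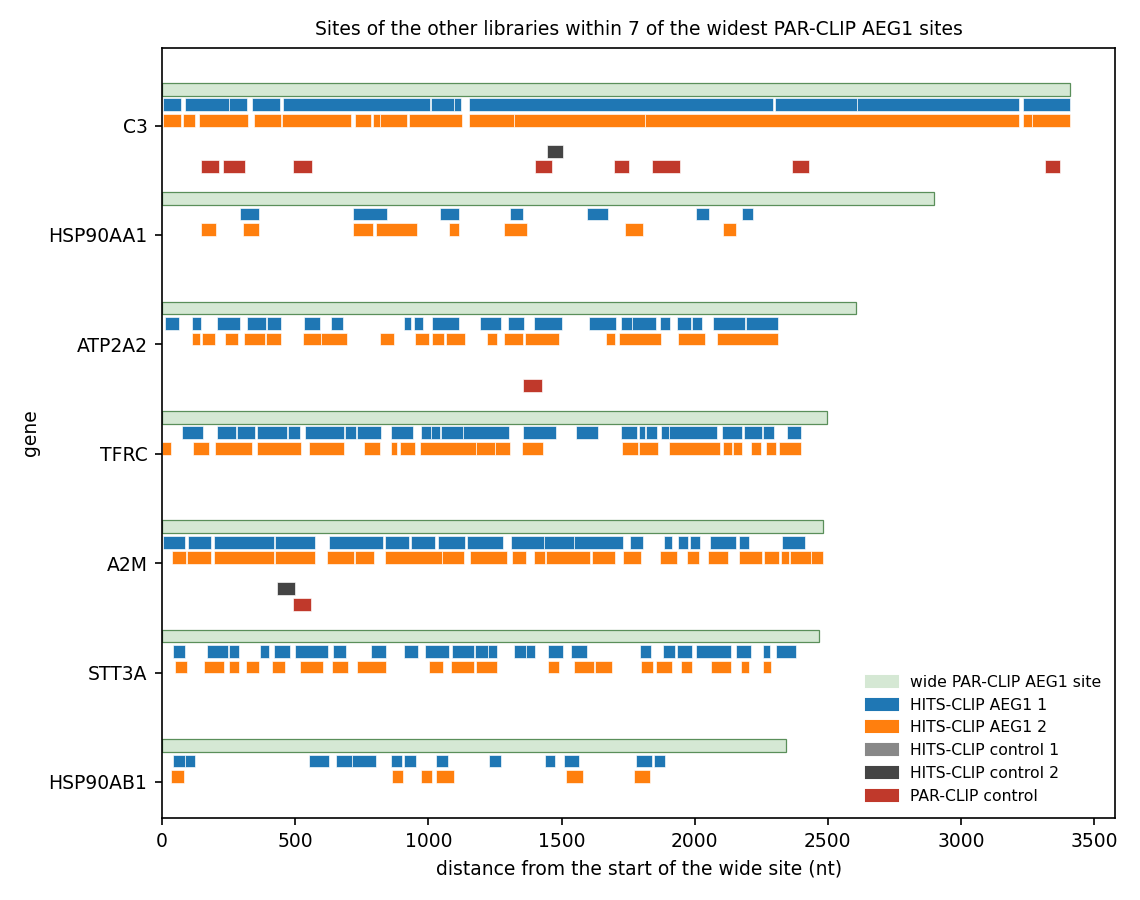
For 7 of the widest PAR-CLIP AEG1 sites (green bars), the x axis is the distance in nt from the start of the site, and the bars beneath are the sites of each other library. HITS-CLIP AEG1 sites fill most of C3 in both replicates and leave most of HSP90AA1 and HSP90AB1 uncovered, and control sites lie mainly on C3.

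The HITS-CLIP sites inside wide sites were longer and were repeated between replicates more often than those elsewhere. On the same transcripts their median width was 60 nt in each replicate, against 52 nt for HITS-CLIP sites on narrower PAR-CLIP sites and 39 and 37 nt for those outside any PAR-CLIP site. A site of the other replicate overlapped 76.9% of the 2710 inside sites of replicate 1 and 83.7% of the 2492 of replicate 2. On narrower PAR-CLIP sites of these transcripts the shares were 62.6% of 1347 and 72.1% of 1165. The authors' HITS-CLIP scores, compared within a transcript, were higher inside wide sites by a median of 0.37 on the log2 scale in replicate 1 (214 of 337 transcripts higher) and 0.33 in replicate 2 (191 of 319). Cover was also higher inside wide sites, and its part in the overlap between replicates was not tested.

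HITS-CLIP AEG1 called few sites of 300 nt or more of its own, 33 in replicate 1 and 23 in replicate 2, and nearly all fell on wide PAR-CLIP sites (32 and 23 touched them). They lay in 23 and 18 genes, of which 12 were shared (52.2% and 66.7% of the lists). The widest were on mRNAs of plasma proteins. On ALB, HITS-CLIP sites of 1585 nt (nt 344 to 1928) and 720 nt were the widest of each replicate within the PAR-CLIP site of 2079 nt. On C3 they were 1141 and 1401 nt, on SERPINA1, or alpha-1-antitrypsin, 526 and 919 nt, and on GC, the vitamin D binding protein, 703 and 865 nt.

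The genes with wide sites were compared by where their proteins are made, with lists of genes chosen for this report. In the 7 endomembrane lists (secreted, ER, Golgi, lysosomal and plasma membrane proteins), 158 of 271 genes with a PAR-CLIP AEG1 site had a wide site (58.3%, exact 95% binomial interval 52.2 to 64.2, counting error only). In the 7 lists of cytosolic and nuclear proteins it was 138 of 293 (47.1%, 41.3 to 53.0). The background over all 8002 genes was 10.8%. Presence of a wide site is what chose the genes, so nothing is read from these shares. The median nt in wide sites per gene was 892.5 and 592.5, against 513.5 over all 864 genes.

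What differed clearly between the pools, in libraries that did not choose the sites, was how much of the wide sites HITS-CLIP AEG1 covered. On endomembrane genes it covered 48.2% and 46.0% of wide-site nt in replicates 1 and 2, a mean of 47.1% ± 1.50 (SD, n = 2). On cytosolic and nuclear genes it covered 15.1% and 12.5%, a mean of 13.8% ± 1.83 (SD, n = 2), and over all wide sites 28.5% and 26.5%. The replicates of the pools did not overlap, and no test across genes was run. The pools differed within each width class as well, at 25.9% ± 1.29 against 7.14% ± 0.888 in sites of 300 to 399 nt and 64.9% ± 1.89 against 30.9% ± 3.71 in those of 1000 nt or more (SD over 2 replicates in each). Narrower PAR-CLIP AEG1 sites of the pools, under 300 nt, differed too, at 11.8% ± 0.991 against 2.07% ± 0.412 (SD over 2 replicates). The difference was thus not particular to wide sites. Both replicates touched a wide site in 138 of 158 endomembrane genes (87.3%) and in 62 of 138 cytosolic and nuclear genes (44.9%), against 465 of all 864 (53.8%). At least 50% of wide-site nt was covered in both replicates in 45 of 158 and 2 of 138 genes, against 88 of all 864. The 2 were EEF1A1, a translation elongation factor, at 68.4% and 61.7%, and ACTB, or beta-actin, at 54.3% and 51.7%, named after their values were seen. No nt was covered in either replicate in 11 of 158 and 52 of 138 genes, against 273 of all 864. The cytosolic and nuclear share without cover was nearer to that of all genes than the endomembrane share was.

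Secreted liver proteins had the highest cover of the endomembrane lists, with 71.7% and 70.8% of the nt in 55 wide sites of 21 genes. In C3 it was 94.6% and 96.3%, in FN1 61.8% and 62.5%, and in APOB 53.5% and 50.7%. ALB stood at 94.9% and 92.7%, and, named after their values were seen, APOE at 98.1% and 100%, TF at 94.3% and 94.4% and GC at 95.3% and 95.7%. The mRNAs of C3, ALB, APOE, TF and GC had hardly any wide-site nt left uncovered in either replicate. On APOE the values rest on a lone wide site of 308 nt, or 28.2% of its span. F5, coagulation factor V, also named after its values were seen, had a wide site of 316 nt without HITS-CLIP cover.

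ER folding proteins followed, with 25 of 36 genes holding wide sites and a cover of 55.7% and 52.2%. GANAB, a glucosidase that trims sugars in the ER, stood at 65.4% and 66.4%, HSP90B1 at 68.8% and 64.0%, and the lectin chaperone CANX at 50.7% and 48.4%. Lysosomal proteins had 18 of 35 genes and a cover of 50.3% and 47.0%, where PSAP, the precursor of the saposins, stood at 82.1% and 75.3%, LAMP1 at 62.4% and 55.2% and the protease CTSA at 28.5% and 36.3%. Translocation and glycosylation proteins had 25 of 40 genes and 41.2% and 39.5%. STT3A stood there at 58.0% and 48.5%, SEC61A1, the pore of the translocon, at 32.7% and 33.1%, and NOMO1 at 47.7% and 49.5%.

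The other 3 endomembrane lists had lower cover. Plasma membrane proteins had 32 of 53 genes and 37.5% and 35.1%, with IGF2R at 42.4% and 36.0% and FAT1 at 2.90% and 8.39%. Enzymes of lipid and sterol synthesis in the ER had wide sites in 20 of 37 genes and 29.0% and 28.1%, with the desaturase SCD at 30.2% and 23.6% and the acyl-CoA synthetase ACSL4 at 18.96% and 8.64%. Golgi and vesicle proteins had 17 of 35 genes and 28.6% and 24.7%, with the mannosidase MAN1A1 at 52.4% and 40.1%, TGOLN2 at 20.6% and 14.7% and the sorting receptor SORT1 at 16.3% and 12.1%. FAT1 is the contrast to APOB, since it had the most wide sites but little HITS-CLIP cover of them.

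Among cytosolic and nuclear proteins, the cytoskeleton list had the highest cover, 25.4% and 24.1% in 18 of 38 genes. SPTBN1 stood at 26.8% and 30.8%, the actin crosslinker ACTN4 at 26.5% and 28.7% and DYNC1H1 at 4.49% and 10.1%. Translation factors and tRNA synthetases had 19 of 42 genes and 19.5% and 16.2%, with EEF2 at 46.9% and 45.5%, EIF4G1 at 15.0% and 8.23% and EIF3B at 9.27% and 10.4%. Ribosomal proteins had wide sites in 30 of 45 genes, a lone site each, and a cover of 16.5% and 14.5%, with RPL9 at 29.9% and 16.8%, RPS3 at 24.2% and 31.3% and RPS7 at 7.86% and 0%. Cytosolic metabolism had 14 of 37 genes and 15.2% and 11.9%, with PKM, or pyruvate kinase, at 28.2% and 21.1%, FASN at 18.0% and 14.6% and ACLY at 1.99% and 0%.

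The remaining lists were lower still. The proteasome and chaperone list had 25 of 42 genes and 12.5% and 7.82%. Nuclear RNA-binding proteins had 25 of 45 genes and 5.31% and 3.61%, with HNRNPA2B1 at 8.28% and 13.1% and SRRM2 at 9.42% and 5.72%. Mitochondrial proteins encoded in the nucleus (in neither pool) had 14 of 51 genes and 8.37% and 5.13%, with the chaperonin HSPD1 at 19.03% and 15.0%, and the ATP synthase subunits ATP5F1A at 11.5% and 2.25% and ATP5F1B at 8.39% and 8.31%. Chromatin proteins had wide sites in 7 of 44 genes, among them TOP2A with 2 and CBX5 and HDAC2 with 1 each, and HITS-CLIP AEG1 covered none of their 2726 nt. These nt lay in 8 sites, against 49723 nt in 55 sites of secreted liver proteins. Cover rose with width, and the part of width in the order of the lists was not tested.

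**Figure D4:**
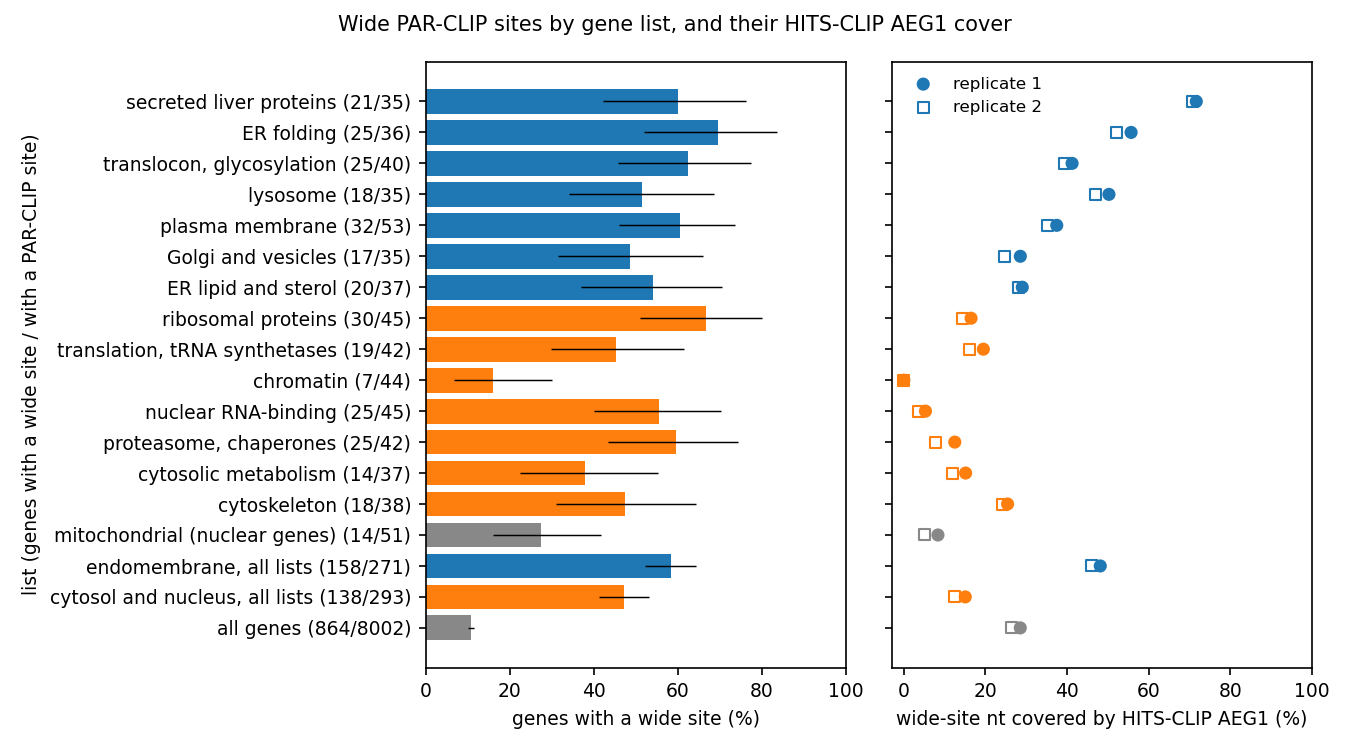
Left, the percent of genes with a PAR-CLIP AEG1 site that have a wide site, by gene list (bars, with exact 95% binomial intervals as lines); right, the percent of wide-site nt covered by HITS-CLIP AEG1 in replicate 1 (circles) and replicate 2 (squares). The left bars of the pools overlap in range, and on the right the endomembrane lists lie from 24.7% to 71.7% and the cytosolic and nuclear lists from 0% to 25.4%, so that the Golgi list in replicate 2 lies below the cytoskeleton list in replicate 1.

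Some members of the HSP90 and HSP70 families with like wide sites show the difference. HSP90B1, which works in the ER, held wide sites over 97.4% of its span, and HITS-CLIP AEG1 covered 68.8% and 64.0% of them. The cytosolic HSP90AA1 and HSP90AB1 held wide sites over 95.5% and 87.6% of their spans, with a cover of 16.9% and 20.3% and of 29.1% and 14.0%. Both ER values lie above all 4 cytosolic values. HSPA5, the ER HSP70, had a cover of 77.2% and 72.6% over wide sites of 2469 nt, and the cytosolic HSPA8 had 40.7% and 30.6% over a site of 2227 nt. HSPA5 was named after its values were seen. In the HITS-CLIP controls, 1 site touched a wide site of HSP90B1 and none touched one of the other 4. HYOU1, another ER protein related to HSP70, went against this order, with a cover of 11.9% and 16.0%, below that of HSPA8. Its wide sites held 1236 nt, or 26.8% of its span, and it was named after its values were seen.

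**Figure D5:**
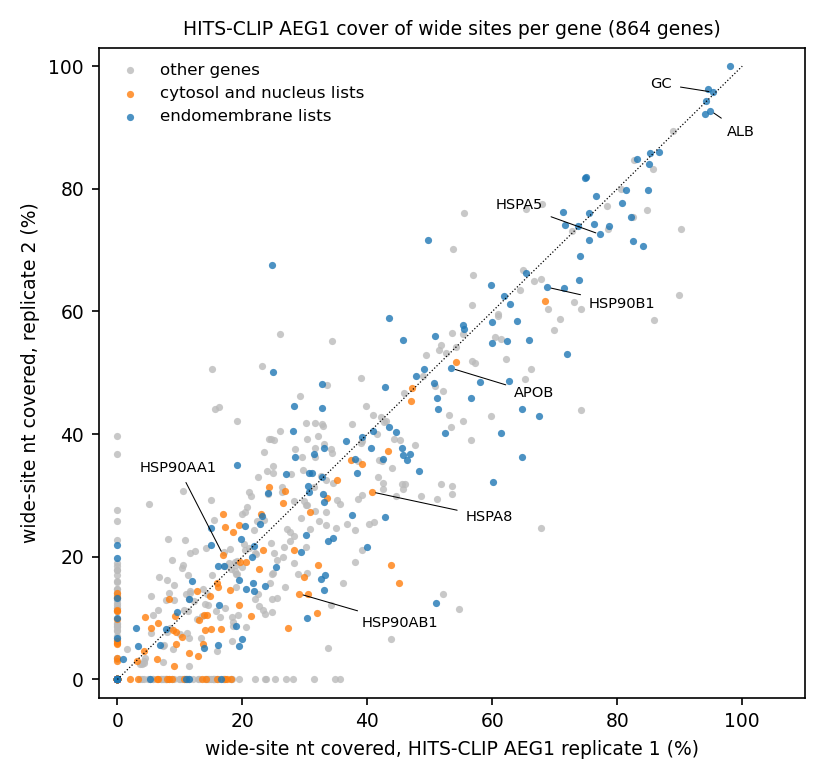
Each point is 1 of 864 genes, with the percent of its wide-site nt covered by HITS-CLIP AEG1 in replicate 1 (x axis) and replicate 2 (y axis); the dotted line marks equal cover. GC and ALB lie above 90% in both, HSP90B1 and HSPA5 above 60% and the cytosolic HSP90AA1 and HSP90AB1 below 30%.

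Cover per gene had a median of 13.0% in replicate 1 and 10.5% in replicate 2 over all 864 genes. Over 591 genes with cover in either replicate, the median absolute difference between them was 7.06 percentage points, which is large beside those medians. The medians also count the genes without cover, so the sets of genes are unlike. In 88 of 864 genes at least 50% was covered in both, and in 273 none in either.

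A group of genes with wide sites had no HITS-CLIP AEG1 site anywhere on the mRNA. Both replicates had a site on 561 of the 864 genes (64.9%), against 15.5% of all genes with a PAR-CLIP AEG1 site and 9.55% of the 7138 genes without a wide site. A further 131 had sites in 1 replicate, and 172 (19.9%) had none. In all, HITS-CLIP AEG1 had sites on 1860 and 1701 genes in replicates 1 and 2. Most of the 8002 genes with a PAR-CLIP AEG1 site thus had none, and having none was less common among genes with wide sites. PRPF8 led the 172 genes, with 6 wide sites of 395 to 958 nt over 47.9% of its span. MRFAP1 followed with 1434 nt in 2 wide sites, POLR2A, the large subunit of RNA polymerase II, with 1236 nt, and SON, a nuclear speckle protein, with 1162 nt. TCP1, a chaperonin subunit, had 1136 nt, XRCC5, the DNA repair protein Ku80, 1073 nt, RRM1, a subunit of ribonucleotide reductase, 1020 nt, and HIF1A, the hypoxia-regulated transcription factor, 988 nt. CALM2, or calmodulin, had 971 nt and VARS1, a tRNA synthetase, 957 nt.

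Along the mRNA, HITS-CLIP cover of wide sites was lowest near the end of the span. It was 308 and 284 nt per 1000 nt in the tertile nearest the start, 297 and 277 nt in the middle and 211 and 195 nt nearest the end. The narrower sites of the same transcripts ran the same way, from 96.7 and 83.5 nt through 84.3 and 71.6 nt to 43.4 and 38.9 nt. SCD shows a fall within a transcript, though not an even one. Its wide site from nt 372 to 1592 was covered to 76.3% and 76.99%, and that from nt 3579 to 5464, the wider, to 20.7% and 3.08%. The wide sites between them ranged from 3.80% to 13.0% in replicate 1 and from 0% to 13.5% in replicate 2. The last site was thus not the least covered in either replicate. On CANX cover fell from 77.7% and 74.4% at nt 54 to 1268 to 0% in both at nt 3346 to 3905.

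Not every mRNA shared that slope. On APOB the 13 sites ranged from 31.2% to 73.4% in replicate 1 and from 29.6% to 71.3% in replicate 2. The lowest in each was the widest, at nt 9772 to 11610, and the next site downstream, at nt 11614 to 12364, stood at 68.3% and 68.2%. On C3 the 3 sites ranged from 85.4% to 96.9% and from 95.7% to 96.7%. THBS1 did fall towards the end, from 86.2% and 77.2% in the first of its 6 sites to 42.5% and 47.2% in the last. Of transcripts with at least 2 wide sites and cover in the first or last, the first was the more covered in 157 of 234 (67.1%) in replicate 1 and 150 of 225 (66.7%) in replicate 2. On transcripts without a wide site the same held for the first and last PAR-CLIP site in 64.3% of 227 and 60.2% of 181, so the share was near the background.

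The mRNA of AEG-1 itself, MTDH, held wide sites of 306 nt (nt 258 to 563) and 1275 nt (nt 833 to 2107). HITS-CLIP AEG1 covered 35.0% and 24.7% of them, and the PAR-CLIP control had 1 site there. The line carries an added, tagged copy, whose fragments cannot be told apart here from those of the cell's own mRNA.

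In the unirradiated controls few sites fell on wide sites, but those that did were a large part of the few called. Of the HITS-CLIP AEG1 sites, 2710 and 2492 lay wholly inside wide sites, a mean of 2601 ± 154 (SD, n = 2), against 20 and 22 in the HITS-CLIP controls, a mean of 21 ± 1.41 (SD, n = 2). The two-sided exact permutation test of 2 against 2 libraries gave p = 0.333, the smallest it allows. As shares of the sites called, these are 42.5% and 44.1% of AEG1 sites and 33.3% and 24.4% of control sites (exact permutation test, p = 0.333). In the PAR-CLIP control, 99 of 121 sites (81.8%) lay inside wide PAR-CLIP AEG1 sites.

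The control sites inside wide sites lay in 49 genes, and a few mRNAs held many of them. ALB had 11 and 9 in the unirradiated HITS-CLIP libraries and 13 in the PAR-CLIP control, all within its site of 2079 nt. C3 had 0, 1 and 10, EEF1A1 1, 0 and 8, and SERPINA1 1, 2 and 4. These sites were called without UV light, and their part in the AEG1 sites of the same mRNAs was not tested. On transcripts without any control site the ratio of HITS-CLIP cover of wide to narrower sites was 3.47 ± 0.163 (SD, n = 2), and the pools stood at 39.4% ± 1.38 and 9.43% ± 1.99 (SD, n = 2).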

How the data were processed

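The 6 libraries hold RNA that came down with HA-tagged AEG-1. Per the labels' protocols, RNA was partly digested with RNase I, precipitated complexes were blotted, and libraries were read as 50 nt single reads. The submitters' processing notes list Bowtie. Its version and reference, the site caller and its threshold are not given in the sources used. Each deposited file lists 1 library's sites with mRNA accession, symbol, start, end and the authors' log2 score, whose normalization is not given. Scores were compared only within a transcript. Starts were taken as 0-based (the lowest is 0) and are printed 1-based.

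Sites with end minus start of 300 nt or more were taken from PAR-CLIP AEG1. Overlaps of at least 1 nt and covered nt were computed per library (Python 3.11.15, pandas 2.3.3, SciPy 1.17.1), with functions tested on simulated sites. Intervals are exact Clopper-Pearson 95%. Symbols came from a RefSeq table (GRCh38.p14): of 8009 transcripts, 7954 were found through the accession, 29 through the symbol and 19 through a synonym, and 7 kept the file's. Sites and lists were chosen with earlier results of these data known. Genes named are the 10 leading by widest site, number of wide sites, span share, HITS-CLIP sites inside (the lower replicate) and wide nt without HITS-CLIP sites, and 3 per list. Others are marked or were named in controls. Alternatives covered width, merging, overlap, control transcripts, position and replicates. Encoded protein hydropathy, planned earlier, and mRNA sequences were not analysed here. A few genes that this rule names are not reported here.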

Additional observations from a re-analysis of the deposited data

How the results depend on the processing

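The number of wide sites depends on how they are delimited. It was 2144 from 250 nt, 763 from 400 nt and 2428 after sites within 10 nt were merged. From 400 nt the median span share was 32.9%, and 46.5% of endomembrane and 30.4% of cytosolic and nuclear list genes held such a site. The share of wide sites touched by HITS-CLIP AEG1 ranged from 58.3% to 61.8% with either replicate left out and was 56.9% on transcripts without control sites. The ratio of HITS-CLIP cover of wide to narrower sites stayed above 3 under the 12 alternatives run. It was 9.44 against the narrower sites of all transcripts, 4.70 from 250 nt, 3.36 from 400 nt, 3.75 without HITS-CLIP sites of 300 nt or more and 3.47 on transcripts without control sites. Of alternatives chosen after seeing the data, it was 3.29, 3.70 and 4.94 within the tertiles of the span from start to end, and 3.65 without the 10 most covered transcripts. With either replicate left out it was 3.88 and 4.16.

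HITS-CLIP cover of the endomembrane and the cytosolic and nuclear pools, a comparison added after seeing the data, was 39.4% and 9.43% without genes with control sites and 50.8% and 16.8% from 400 nt. As a median over genes it was 37.0% and 4.73%. Without secreted liver proteins the endomembrane value was 39.6%, and without the cytoskeleton list the other was 10.9%. With either replicate left out, the pools ranged from 46.0% to 48.2% and from 12.5% to 15.1%. Endomembrane cover was the higher under each of these alternatives.

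The excess of HITS-CLIP AEG1 over control sites inside wide sites, a difference of 2580, gave an exact p = 0.5 with the replicate number as a block, the smallest that 2 pairs allow. It ranged from 2471 to 2689 with any replicate left out. The causes of these shifts were not tested, and read depth behind the sites is unknown.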
